A study of Homo sapiens with 18 samples.

Results

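The granins are acidic proteins of the secretory granules of neuroendocrine cells, and 5 of their genes were examined here: CHGA (chromogranin A), CHGB (chromogranin B), SCG2 (secretogranin II), SCG3 (secretogranin III) and VGF, out of 20163 protein-coding genes in the annotation. The genes were chosen by family, with earlier results of these peak lists in view, and their peaks were selected on being called and on position alone: each peak of 9 lists that overlapped the gene body on hg19 or lay within 10 kb of it. This gave 7 of the 22458 peaks in all lists. The presence of these peaks and their distance from the gene are therefore given as a description.

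LNCaP is a human prostate cancer cell line that responds to androgen, and 18 of its samples, in 9 groups of 2 replicates, were studied by chromatin immunoprecipitation and sequencing (ChIP-seq). EHMT1 (also called GLP) is a methyltransferase that places dimethylation on lysine 9 of histone H3 (H3K9me2). In 4 stable, puromycin-selected lines a lentiviral, doxycycline-inducible EHMT1 with a V5 tag was expressed as wild type (WT) or with arginine in place of either or both of a pair of lysines (K450R, K451R and K450RK451R), after 0.5 µg/ml doxycycline for 2 days, and V5 and H3K9me2 were precipitated from each. EHMT1 itself was precipitated from untreated parental LNCaP cells. The labels give RPMI medium with 10% fetal bovine serum for all samples, and the study's methods a serum free of tetracycline for the stable lines. A V5 peak marks the added, tagged protein, and an EHMT1 peak, from parental cells, the cells' own. No deletion of the cells' own EHMT1 is named for the 4 lines. Peak lists hold no expression values, so neither the granin transcripts nor the identity of the cells could be checked against marker transcripts.

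One list of narrow peaks was deposited per group, and the sources do not say if a list pools the 2 replicates or uses 1. No value below has a replicate error and no test was made. For each peak the lists give a fold enrichment, the ratio of reads piled up at the summit to the background (with 1 added to both), and −log10 q, the minus logarithm of the false discovery rate. None of the samples was an input control, and the study's methods name none. The background was therefore taken to come from the ChIP reads themselves, which the sources do not state. The whole number of reads at each summit was solved from the deposited values. The number of reads per list, estimated from its background, ran from 8790000 to 27600000. The lists held 637 to 1256 peaks for the WT, K450R and K451R V5 groups and the 4 H3K9me2 groups, 1748 for EHMT1, and 14799 for K450RK451R V5, in which the smallest −log10 q was 1.31 and the median pileup only 9 reads.

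Granins aggregate with hormones and amines when the regulated secretory pathway forms dense-core granules, and most are cut into peptides inside them. CHGA in blood or tissue is the classical marker of neuroendocrine tumours, and it and its relatives mark neuroendocrine differentiation of prostate cancer. In cells without a neuroendocrine programme several of these genes are held silent through the repressor element 1 (RE1), a DNA element bound by the repressor REST (NRSF), whose complexes include EHMT1 and EHMT2.

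The RE1 element was searched as its core, with the arms TCAGCACC and GGACAGC separated by any 2 bases, on both strands, with up to 2 mismatches over the 15 letters compared. This is called the RE1-type string below. REST is also known to bind the same arms at other spacings, so the arms were searched again at 0 to 12 bases apart with at most 1 mismatch. This wider search was added after the SCG3 and SCG2 sequences had been seen. A match is a match of letters and not a measured binding site.

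The best sites of CHGA, VGF, SCG3 and SCG2 are shown because the 5 granin regions with a peak each had such a site, while SCG2, without a peak, had one at another spacing. Each line gives 30 bases of hg19, plus strand, 5′ to 3′, with both arms in capitals.
CHGA upstream, chr14:93380583-93380612: ggtagtTCAGGACCacGGACAGCagcctgc
CHGA intron 1, chr14:93389863-93389892: gagtttTCAGCACCgcGGACAGCgcctccg
VGF start, chr7:100808835-100808864: ccggctTCAGCACGctGGACAGCgcccgcg
SCG3 exon 1, chr15:51973706-51973735: actTCAGCACCcacagggcGGACAGCgctc
SCG2 start, chr2:224467071-224467100: ggccgttTCAGCACAcGGACAGCtcctctg

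CHGA intron 1 and CHGB had all letters of both arms at the usual spacing of 2 bases. The CHGA upstream site differed by C5G and the VGF site by C8G, with the searched core first and positions counted from 1 over the 15 letters, the spacer left out. At SCG3 both arms were complete but 8 bases apart. At SCG2 they were 1 base apart, with C8A. At VGF and SCG2, both minus-strand genes, the site ran opposite to the gene and spanned the annotated start.

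K450RK451R V5 peaks were called at 3 of the 5 genes (CHGB, SCG3 and VGF), where 27.7% of all protein-coding genes had one under the same rule. EHMT1 peaks were called at 3 (CHGA, CHGB and SCG3), where 2.67% of all genes had one. CHGB and SCG3 were in both lists, as were 1.71% of all genes. Nothing is read from these shares, since the peaks were part of how the genes came to be examined. With −log10 q of at least 5 none of the 3 granin genes kept its V5 peak, while 2 of the 3 with an EHMT1 peak (CHGA and SCG3) kept it, also at −log10 q of at least 10. With the 637 strongest peaks of each list only the SCG3 EHMT1 peak was left. SCG2 had no peak in any of the 9 lists. No granin gene had a peak in the other 7 lists, and the background there was low: 0.362% of genes had a WT V5 peak, 0.382% a K450R and 0.575% a K451R V5 peak, and for H3K9me2 the shares were 0.536% in WT, 0.590% in K450R, 0.922% in K451R and 0.803% in K450RK451R cells.

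**Figure D1:**
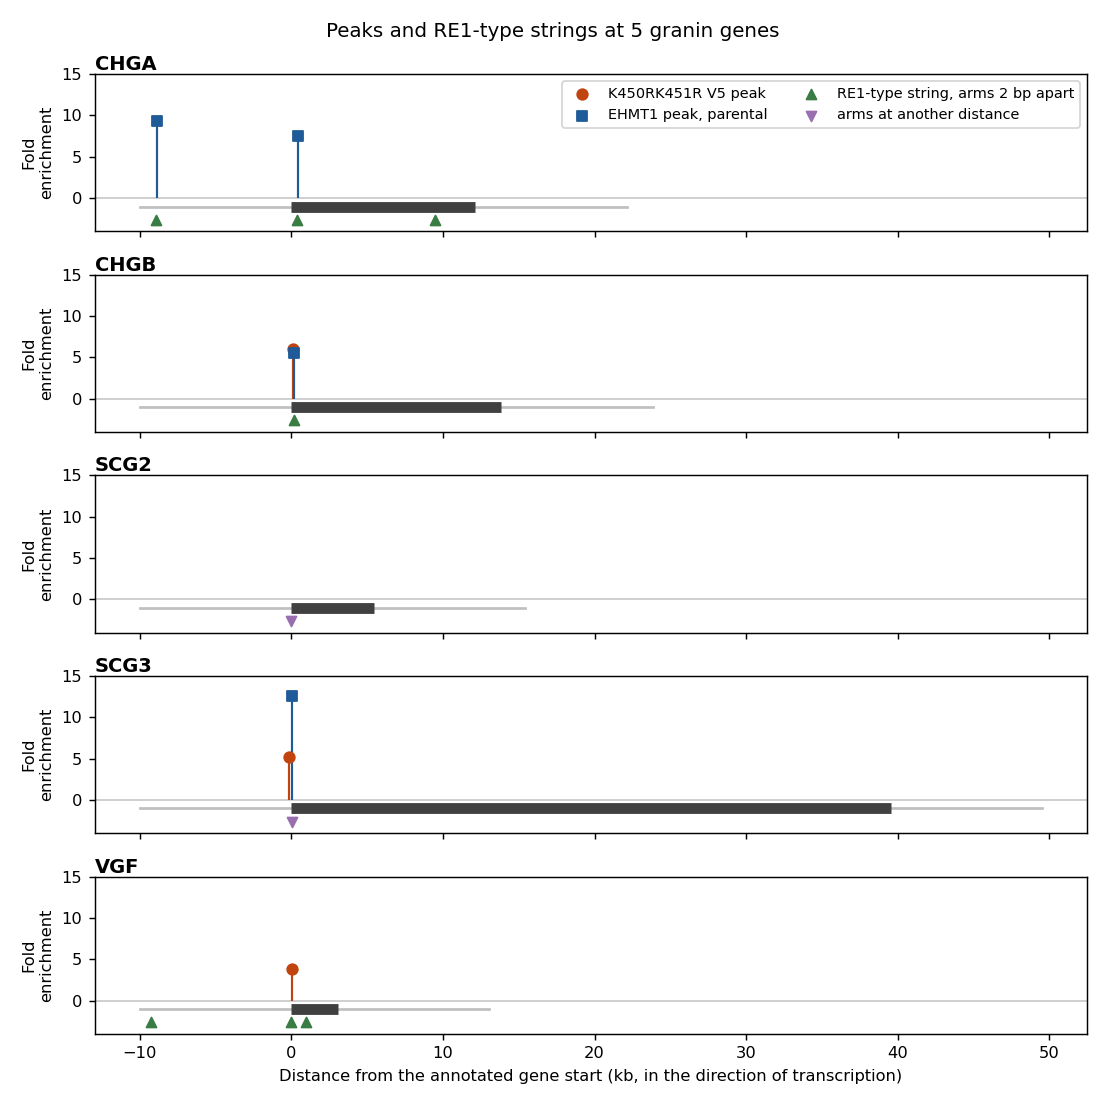
Peaks at the 5 granin genes, with distance from the annotated gene start in kb on the x axis (positive into the gene) and fold enrichment on the y axis. The dark bar is the gene body, the thin line the 10 kb searched on each side, circles are K450RK451R V5 summits, squares EHMT1 summits, upward triangles RE1-type strings and downward triangles arms at another spacing. All summits but the CHGA upstream one stand within 1 kb of a start, and SCG2 has none.

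The 7 peaks formed 5 merged regions. In 4 of them (CHGA intron 1, CHGB, SCG3 and VGF) a summit lay within 1 kb of the gene start. Among all protein-coding genes, 3.89% had a K450RK451R V5 summit and 0.382% an EHMT1 summit that close. Peaks were 153 to 231 bp wide and 52.9% to 74.6% G and C. All 1034 stretches of 51 bases in them, the length of a read, occurred once in the assembled chromosomes as an exact match. They were counted peak by peak, so the 147 of the CHGB EHMT1 peak, which also lie in the CHGB V5 peak, are counted for both. Copies with mismatches and reads that begin outside a peak were not examined.

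CHGA, at chr14:93389495-93401630 on the plus strand, encodes the granin used most as a tumour marker. It had 2 EHMT1 peaks and no peak in the other 8 lists. The stronger one, at chr14:93380531-93380683, lay between genes with its summit 8893 bp upstream of the start. There 20 reads were piled up (95% exact Poisson interval 12.2 to 30.9, counting error only, as in all such intervals here) on a background of 1.26, for a fold enrichment of 9.29 and −log10 q of 13.50. It ranked 803 of 1748 EHMT1 peaks by q. The whole peak is printed, since it is the one granin region away from a promoter, with the arms in capitals, hg19 plus strand.
CHGA upstream EHMT1 peak, chr14:93380531-93380683: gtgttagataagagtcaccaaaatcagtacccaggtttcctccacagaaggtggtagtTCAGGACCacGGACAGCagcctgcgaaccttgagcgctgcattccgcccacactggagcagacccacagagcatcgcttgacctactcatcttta
The centre of the string was 5 bp from the summit.

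The second CHGA peak, at chr14:93389886-93390076 in intron 1, had its summit 463 bp after the start. It held 14 reads (7.65 to 23.5) over a background of 1.01, with a fold enrichment of 7.46 and −log10 q of 8.08, and ranked 1294 of 1748. The complete RE1-type string, chr14:93389869-93389885, ended next to the first base of this peak, outside it, and its centre was 81 bp from the summit. The 2 CHGA summits were 9356 bp apart. Another string, at chr14:93398947-93398963 with 2 mismatches, had no summit within 1 kb.

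CHGB, at chr20:5892156-5905999 on the plus strand, encodes the second classical chromogranin and was the gene where the 2 lists coincided most. The K450RK451R V5 peak (chr20:5892214-5892444) covered the whole EHMT1 peak (chr20:5892229-5892425), with 197 bp shared and summits 63 bp apart. The V5 summit fell in exon 1, 140 bp after the start, in a stretch annotated as coding or untranslated depending on the transcript. It held 10 reads (4.80 to 18.4) on the genome-wide background of 0.84, for a fold enrichment of 5.98 and −log10 q of 4.59. The EHMT1 summit was in intron 1, 203 bp after the start, at the very base on which the RE1-type string is centred, with 12 reads (6.20 to 21.0), a background of 1.33, a fold enrichment of 5.58 and −log10 q of 4.55. In the much longer V5 list the peak ranked 2738 of 14799 by q, while the EHMT1 peak ranked 1643 of 1748, near the end of its list.

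SCG3, at chr15:51973689-52013223 on the plus strand, encodes a granin that binds CHGA and cholesterol at the granule membrane. Its EHMT1 peak, chr15:51973596-51973811, was the strongest of the 7: 31 reads (21.1 to 44) over a background of 1.55, with a fold enrichment of 12.55 and −log10 q of 25.002. It ranked 353 of 1748 by q, and 91.1% of the list had a lower fold enrichment. The summit lay in the untranslated part of exon 1, 45 bp after the start and 14 bp from the centre of the separated arms. The K450RK451R V5 peak, chr15:51973427-51973643, ended before the start and shared only 48 bp with it, 22.1% of its own length. Its summit was 135 bp upstream of the start and 180 bp from the EHMT1 summit, with 9 reads (4.12 to 17.1), a background of 0.93, a fold enrichment of 5.18 and −log10 q of 3.37, ranking 6972 of 14799. No RE1-type string and no arms lay within 100 bp of that summit. The sequence around it is given without capitals because none of the searched strings matched.
SCG3 V5 summit, chr15:51973504-51973604: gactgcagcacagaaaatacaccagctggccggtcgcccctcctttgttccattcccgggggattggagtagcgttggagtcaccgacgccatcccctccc

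VGF, at chr7:100805790-100808850 on the minus strand, encodes a neurotrophin-induced granin that is cut into several peptides. It had a single K450RK451R V5 peak, chr7:100808776-100808954, over the start, and no EHMT1 peak. The summit lay in the untranslated exon 1, 20 bp after the start and 19 bp from the centre of the string, with 11 reads (5.49 to 19.7). The local background of 2.13 was the highest of the 7, so these reads gave the lowest fold enrichment, 3.83, with −log10 q of 2.14. The peak ranked 12113 of 14799, and only 6.24% of the list had a lower fold enrichment. Upstream of the start this peak also held TGACGTCA, the full cAMP response element, 79 to 72 bp before the start, and the E-box CACGTG, 54 to 49 bp before it, both in capitals below on the minus strand, which is the strand of the gene.
VGF upstream part of the peak, chr7:100808851-100808954: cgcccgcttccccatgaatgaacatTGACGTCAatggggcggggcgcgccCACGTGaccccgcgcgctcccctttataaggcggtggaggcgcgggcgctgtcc
Among K450RK451R V5 summits within 1 kb of a start, 0.684% held TGACGTCA and 3.83% CACGTG within 100 bp of the summit. Of 35116 RefSeq promoters (GRCh38.p14, 250 bases before to 50 after the start), 1.85% held TGACGTCA and 7.26% CACGTG. VGF held both there, CHGA held TGACGTCA alone and SCG3 held neither, and promoters of these 3 members were in the table. No granin summit window held the E2F string TTTNNCGC with C or G at each N.

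**Figure D2:**
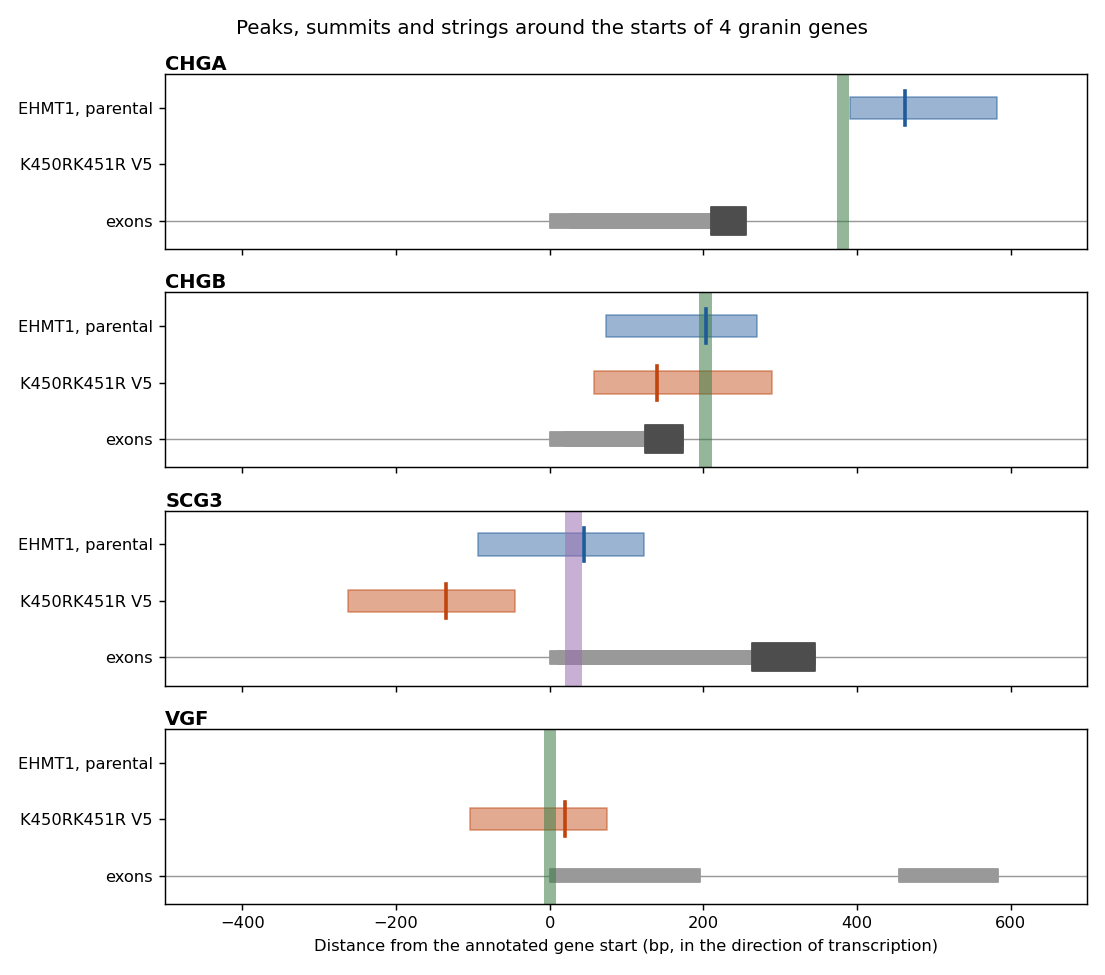
The 4 genes with a summit near the start, with distance from the annotated start in bp on the x axis, in the direction of transcription. Bars are peaks of each list with the summit as a vertical line, thick grey boxes coding and thin ones untranslated exon parts, the green band is the RE1-type string and the purple band the arms 8 bases apart. The EHMT1 summit sits on the string at CHGB and beside it at SCG3, while both V5 summits there lie on its upstream side.

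SCG2, at chr2:224461658-224467079 on the minus strand, encodes the precursor of secretoneurin. It had neither a peak nor an RE1-type string within 10 kb, and its arms 1 base apart lay over the annotated start without a peak. The nearest peak of any list was 248 kb away. For the other genes, the peak farthest out under the rule was 8.81 kb from the body (CHGA), and the nearest beyond it was a K450RK451R V5 peak 28.3 kb downstream of CHGB with a fold enrichment of 4.48. Between 10 and 50 kb of the 5 bodies that was the only peak.

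Of the 7 RE1-type strings within 10 kb of the granin genes, the 4 with at most 1 mismatch each had a summit within 100 bp. Of these 4 strings, 3 lay under a peak, and the one in CHGA intron 1 lay just outside its peak. Of the 3 with 2 mismatches, at CHGA and VGF, none had a summit within 100 bp or a peak over it. In the whole genome, 237 strings matched without mismatch, of which 47.7% lay under an EHMT1 peak and 12.7% under a K450RK451R V5 peak. With 1 mismatch these shares were 20.4% and 3.82% of 1047 strings, and with 2 mismatches 1.69% and 0.745% of 8595. Complete arms 8 bases apart, as at SCG3, occurred 56 times, 20 of them under an EHMT1 peak and 4 under a V5 peak. Arms 1 base apart with up to 1 mismatch, as at SCG2, occurred 314 times, 4 of them (1.27%) under an EHMT1 peak and 3 under a V5 peak.

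The RE1-type string lay within 100 bp of a summit in 4 of the 5 granin regions, and in all 5 when the arms could be 0 to 12 bases apart. A region was counted if a summit of either list met the rule, and the SCG3 V5 summit met neither. The shares that follow are per summit of a single list, so they are not on the same footing. Among all EHMT1 summits 24.2% had the string within that distance, and among the 74 within 1 kb of a start 37 (50%), or 68.9% with either search. Of K450RK451R V5 summits 0.757% had it, and 3.01% of the 731 within 1 kb of a start. The shares of all summits were similar in the other V5 lists, 0.92% in WT, 0.942% in K450R and 0.93% in K451R. In windows 1 kb to the right of the summits the string was found in 0 of 1748 for EHMT1, which allows a share of up to 0.172%, and in 0.0473% for V5. Of all protein-coding starts, 2.08% had the string within 1 kb, and of RefSeq promoters 0.236%. With either search the share was 28.1% of all EHMT1 summits and 2.92% of protein-coding starts. For K450RK451R V5 it was 0.926% of all summits and 4.38% of those within 1 kb of a start. The median distance between summit and string was 15 bp over the 423 EHMT1 summits that had one and 30 bp over the 112 V5 summits. The granin EHMT1 summits at CHGB and upstream of CHGA lay closer to the string than the EHMT1 median, and the one in CHGA intron 1 lay farther. Of the V5 summits, the VGF one lay closer than the V5 median and the CHGB one, at 63 bp, farther. SCG3 has no RE1-type string, and its EHMT1 and V5 summits were 14 and 166 bp from the centre of the separated arms.

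**Figure D3:**
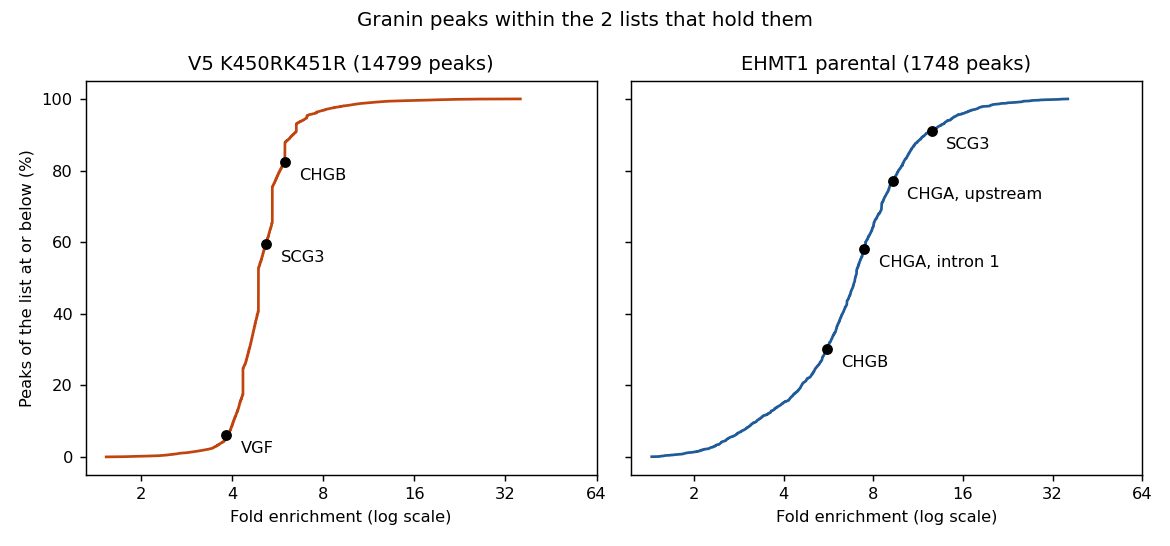
Cumulative share of peaks (y axis, %) by fold enrichment (x axis, log scale) in the K450RK451R V5 list on the left and the EHMT1 list on the right, with granin peaks as black points. They spread over both lists: in V5 the share of peaks with a lower value ran from 6.24% (VGF) to 82.5% (CHGB), and in EHMT1 from 30.2% (CHGB) to 91.1% (SCG3).

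What a list without a peak could have shown depends on its depth and on its calling cutoff. Each granin pileup was scaled by the ratio of the genome-wide backgrounds of 2 lists, and compared with the pileup at which the second list would have called a peak over the equally scaled local background. This adjusts for depth only, and not for the antibody. The required pileup was the one that reached the second list's own lowest −log10 p (minus logarithm of the Poisson p-value). That cutoff differed between lists: 6.57 in WT, 5.89 in K450R, 5.48 in K451R and 3.99 in K450RK451R V5. A higher cutoff raises the required pileup, and the parts of depth and cutoff were not separated. Of 21 such comparisons with the WT, K450R and K451R V5 lists, 14 scaled pileups fell under the required one, and in only 2 did the whole 95% interval reach it. Both were the SCG3 EHMT1 peak, which scaled to 12.8 reads (8.73 to 18.2) in K450R and 16.3 (11.1 to 23.2) in K451R against 7 required. In WT it scaled to 10.2 reads (6.95 to 14.5), also against 7 required. The K450RK451R V5 pileups scaled to 3.90 reads (1.87 to 7.17) at CHGB, 3.51 (1.61 to 6.67) at SCG3 and 4.29 (2.14 to 7.68) at VGF in the WT list, where 6, 6 and 8 were required. The intervals at CHGB and SCG3 included the required pileup, and the one at VGF lay under it, so that a V5 signal of equal strength could have been missed in the WT list at these 3 genes.

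For the 28 comparisons with H3K9me2 lists, 10 scaled pileups were under the required one and 5 intervals lay wholly at or above it, for the upstream CHGA peak and for SCG3. The H3K9me2 lists hold narrow peaks only, and a low level of the mark spread over a gene would not appear in them. The CHGA EHMT1 peaks scaled to 16.9 (10.3 to 26.1) and 11.8 reads (6.47 to 19.9) in the K450RK451R V5 list, where 7 and 6 were required, so that a V5 signal of that strength at CHGA would have been called. At VGF the V5 pileup scaled to 13.0 reads (6.49 to 23.3) in the EHMT1 list, where exactly 13 were required, and an EHMT1 signal of equal strength could have been missed.

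**Figure D4:**
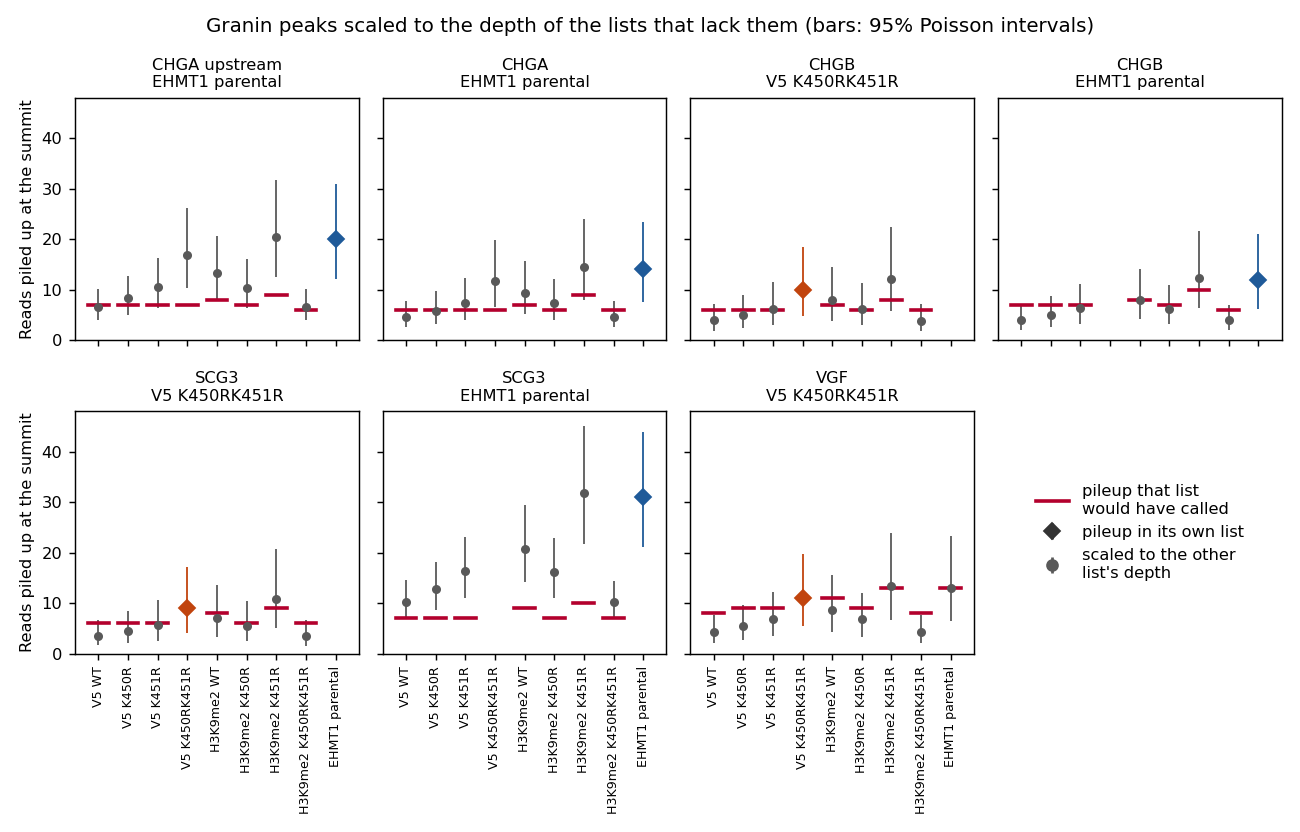
One panel for each granin peak, with the 9 lists on the x axis and reads piled up at the summit on the y axis. Diamonds are the pileup in its own list, circles the pileup scaled to the depth of a list without the peak, bars 95% Poisson intervals and red lines the pileup that list would have called. The circles of SCG3 from the EHMT1 list stand above the red lines in all lists, and those of CHGB, SCG3 and VGF from the V5 list stand under it in WT and K450R V5.

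Other genes of the dense-core vesicle were taken as a list of 37, covering granin-like chaperones, prohormone processing, granule membrane and exocytosis, amine uptake and synthesis, and neuropeptide cargo. K450RK451R V5 peaks were found in or within 10 kb of 12 of them (32.4%, against 27.7% of all genes) and EHMT1 peaks at 9 (24.3%, against 2.67%). Within 1 kb of the start a V5 summit was found at 1 of them (2.70%, against 3.89% of all genes) and an EHMT1 summit at 3 (8.11%, against 0.382%). Under the 10 kb rule, the 15 genes of the granule membrane and exocytosis held most of the peaks, with V5 peaks at 9 and EHMT1 peaks at 6. Of 10 neuropeptide genes none had a V5 peak and 1 had an EHMT1 peak. That rule gives long genes more room for a peak, and gene length was not adjusted for. Within 1 kb of the start, V5 summits were found at 0 and EHMT1 summits at 1 of the 15 genes. For the 10 neuropeptide genes these counts were also 0 and 1. An RE1-type string lay within 100 bp of an EHMT1 summit at 6 of the 9 genes (CADPS, PTPRN, SNAP25, SST, SYT4 and SYT7), and of a V5 summit at 3 of the 12 (PTPRN, SNAP25 and SYT7). Over the whole lists, 24.2% of EHMT1 summits and 0.757% of K450RK451R V5 summits had the string. Those shares are per summit, whereas a gene with several peaks counted if any of its summits had the string.

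The 4 other dense-core vesicle genes with a summit within 1 kb of a start were PCSK1, SYT4, SST and SCG5. PCSK1, the convertase that cuts granins and prohormones, had an EHMT1 summit 193 bp upstream of its start with a fold enrichment of 11.06 and arms beside it. SYT4, a vesicle synaptotagmin, had one 196 bp after the start with 10.89, and SST, which encodes somatostatin, one 582 bp after the start in intron 1 with 8.98. SCG5, which encodes the chaperone 7B2 of the convertase PCSK2, had a V5 summit in intron 1, 786 bp after the start, with 4.10 and neither string. Outside 1 kb, SNAP25 (named after its values were seen), a membrane fusion protein of exocytosis, had in its intron 1 an EHMT1 peak with a fold enrichment of 12.73, a K450RK451R V5 peak with 8.42 and a K451R V5 peak with 8.13, each with a complete string within 100 bp of the summit, so that the K451R V5 list did hold a site of this kind.

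Genes with peaks in the same lists and of most similar height were sought by Euclidean distance over the log2 fold enrichment of the strongest peak in each of the 9 lists, 0 where there was none. For CHGB the 3 nearest were CNTNAP5, RGS7 and THRB, at distances of 0.000517, 0.0161 and 0.0289 log2 units. All 3 had the same K450RK451R V5 fold enrichment as CHGB, 5.98, which at CHGB came from 10 reads on the genome-wide background. Pileups are small whole numbers, so equal values arise easily and the small distances carry little weight. None of the 3 had summits of both lists within 1 kb of its start, as CHGB did. For SCG3 they were CERKL and its neighbour NEUROD1, both at 0.0849, and LRRTM4 at 0.105. CERKL and NEUROD1 had the same values, a fold enrichment of 5.32 in K450RK451R V5 and 11.90 in EHMT1. CHGA and VGF were each in 1 list and were not matched.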

How the data were processed

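LNCaP lines were profiled by ChIP-seq in 18 samples (9 groups, 2 replicates each). Per the study's methods, single-end reads of 51 nt were mapped to hg19 and peaks called with MACS2. The submitters' processing notes name FastQC 0.11.9, BWA 0.7.9a, SAMtools 1.2 and MACS2 2.1.0. The authors deposited 1 narrow peak list per group, with fold enrichment (a ratio of pileup to background), −log10 p and −log10 q for each peak, and the summit offset from the peak start. No column was left without a group. Whether a list pools both replicates is not given in the sources used here.

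Pileup and Poisson background were solved together from the deposited fold and −log10 p. A solution was found for all 22458 peaks, and 33 with 2 solutions were given the one on a step of 0.01. Of all backgrounds, 99.95% were the list's genome-wide value or a multiple of 0.01, as a read extended to 100 bp adds to 10 kb. From these steps it was inferred that peaks were called without an input control. Fold enrichment and q would then compare each library with its own background. Reads per list were estimated from the genome-wide value, that extension and a genome of 2.7 Gb. Genes, exons and starts came from GENCODE version 44 mapped to hg19, and the sequences from the hg19 (GRCh37) genome. RefSeq promoters served for shares of strings only. Solver and string search were tested on simulated data. Members, gene lists and search strings were chosen with earlier results of these data known. The genes named are the 5 granins, the listed vesicle genes with a summit within 1 kb of a start, and the 3 genes nearest to each granin in at least 2 lists. Outside this rule, CADPS, PTPRN, SNAP25 and SYT7 were named after their values were seen, and so were the markers SYP and NCAM1. Coordinates are 1-based. The analysis ran in Python 3.11.15 with pandas 2.3.3, numpy 2.4.6, scipy 1.17.1, numba 0.67.0 and pysam 0.24.0. Some planned items are not reported here.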

Additional observations from a re-analysis of the deposited data

How the results depend on the processing

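Of 73 recomputed counts (8 counts under the alternatives that apply to each), 55 stayed within 1.5 times the reported value. The counts of 0 granin genes with a WT, K450R or K451R V5 peak and with an H3K9me2 peak stayed at 0 with a reach of 50 kb. Their other alternatives could only remove peaks, so that 0 was fixed in advance there. These fixed values are among the 55. With −log10 q of at least 5, granin genes with a K450RK451R V5 peak fell from 3 to 0, merged regions from 5 to 3, regions in both lists from 2 to 0, regions with a summit within 1 kb of the start from 4 to 2 and regions with an RE1-type string from 4 to 2, while genes with an EHMT1 peak went from 3 to 2 at this cutoff and at 10. With −log10 q of at least 10 the first 5 of these counts were 0, 2, 0, 1 and 1. With equal numbers of peaks per list, 637 each, genes with a K450RK451R V5 peak were 0, genes with an EHMT1 peak 1 (SCG3, in place of 3), merged regions 1, shared regions 0, regions near a start 1 and regions with an RE1-type string 0. Shared regions were 1 in place of 2 when the gene body alone counted and when a reciprocal overlap of 50% was required, CHGB being the one kept. The search with arms 0 to 12 bases apart, chosen after seeing the data, gave 5 regions in place of 4. A second annotation of the same build was not used here, so that alternative was not run. No paired analysis was possible because the peak lists carry no value for a single replicate, and leaving out a replicate was not possible for the same reason. Pileups of 9 to 31 reads limit each single call, and the K450RK451R V5 calls at CHGB, SCG3 and VGF rest on 9 to 11 reads.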

Other observations

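Peaks at other neuroendocrine markers were looked up by the same rule and are given as values only. SYP, which encodes synaptophysin of the vesicle membrane, had a K450RK451R V5 summit 59 bp after its start in coding exon 1, with a fold enrichment of 5.94, 11 reads and an RE1-type string with 2 mismatches within 100 bp. NCAM1, which encodes a neural cell adhesion molecule, had a K450RK451R V5 summit in intron 3 with a fold enrichment of 5.98 and 10 reads, and neither string beside it. Neither gene had an EHMT1 peak.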
